A study of Mus musculus with 12 samples.

Results

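The cytosolic translation initiation and elongation factors were taken as the protein-coding genes of the deposited table whose names begin with Eif1 to Eif6 or with Eef1 or Eef2, without the 4 Eif2ak genes, which encode kinases of eIF2. The rule used gene names only and gave 63 genes (51 Eif and 12 Eef) of 54345 genes in the table, of which 22058 are protein-coding. The cells were H9c2(2-1), a heart-derived cell line labelled as wild-type myoblasts, in 4 groups of 3 libraries, and every treatment lasted 6 h. The groups were untreated cells (Unt), doxorubicin (DOX), doxorubicin with dexrazoxane (D_DXZ) and doxorubicin with magnesium hexacyanoferrate nanocatalysts (D_MgHCF). Doxorubicin is an anthracycline that poisons topoisomerase II, and dexrazoxane is a cardioprotectant whose product binds iron. No group received dexrazoxane or MgHCF without doxorubicin, and the doses in the sequenced cells were not given in the sources used here. No source used here says whether the 3 libraries of a group came from separate cultures, so p-values measure the spread between these libraries only.

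Translation begins when initiation factors load the initiator tRNA and the small ribosomal subunit onto a capped mRNA and move it to the start codon. eIF2 carries the initiator tRNA, eIF4F binds the cap, eIF3 bridges the ribosome and the mRNA, and eIF1 and eIF1A guard the choice of start codon. Elongation factors then deliver each aminoacyl-tRNA (eEF1A) and move the ribosome on by a codon (eEF2). Cells adjust both phases chiefly through eIF2 and its exchange factor eIF2B, through the eIF4E-binding inhibitors downstream of mTORC1, and through eEF2 kinase.

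Many of these mRNAs, like those of ribosomal proteins, are known to start with a C followed by a run of pyrimidines at the very 5′ end, a feature that couples their translation to mTORC1. The bases around the mouse RefSeq start (GRCm38.p6, gene strand) are shown for 3 members with a tract across the start that had higher FPKM in DOX than in Unt on the deposited scale, for Eif4b, whose pyrimidine run begins 10 bases downstream of the start and which had lower FPKM, and for Eif4g1 and Eif1, which have none. Each run holds 10 bases before the start and 20 from it, and capitals mark the tract.
Eef1a1, chr9:78481705-78481734, minus strand: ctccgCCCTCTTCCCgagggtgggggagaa
Eif2s3x, chrX:94212632-94212661, minus strand: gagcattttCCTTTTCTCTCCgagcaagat
Eif3f, chr7:108934405-108934434, plus strand: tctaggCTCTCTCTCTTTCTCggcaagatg
Eif4b, chr15:102073763-102073792, plus strand: tcccgtcggacgccgcgccaCCCCCTCgcg
Eif4g1, chr16:20672717-20672746, plus strand: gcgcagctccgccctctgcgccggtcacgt
Eif1, chr11:100319939-100319968, plus strand: ggcgtcacaggggcggctatataagtgaat
A C followed by at least 6 bases that are C or T lay within 20 bases of a start, on the gene strand, in 15 of the 48 members that had a RefSeq start (31.25%) and in 5773 of 27025 genes of the same table (21.4%).

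The libraries held 16626514 to 19365119 reads on genes. Eif4e, at a mean of 20.2 FPKM in Unt, was backed by 8941 reads over the 3 Unt libraries. Summed over the 63 members, the factors took 3.01% ± 0.142 (SD, n = 3) of all reads in Unt, 3.97% ± 0.0816 in DOX, 3.83% ± 0.0705 in D_DXZ and 2.38% ± 0.168 in D_MgHCF. This share does not depend on any scaling between libraries, and the 4 groups were separate except that DOX and D_DXZ overlapped. Eef1a1 alone took 0.906% ± 0.110 of the reads in Unt, 1.46% ± 0.0558 in DOX, 1.396% ± 0.0428 in D_DXZ and 0.803% ± 0.116 in D_MgHCF. The 10 most abundant genes of each library took 3.78% of reads in Unt, 7.14% in DOX, 7.05% in D_DXZ and 4.63% in D_MgHCF, and mitochondrial genes took 1.27%, 2.81%, 3.05% and 2.61% in the same order. These values moved with the treatment, and their part in the changes of the factors was not tested.

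The labelled cell type was checked against its markers. Of 14 myoblast and muscle genes, 1 (Acta1) had a mean of at least 1 FPKM over the 12 libraries, at 1.01 FPKM, none was at 0 in all libraries, and the myogenic factors Myod1, Myog, Myf5 and Myf6 were at or near 0 in each. Of 8 fibroblast or mesenchymal genes 6 reached 1 FPKM, with Vim highest at 547 FPKM, whereas 0 of 7 cardiomyocyte genes, 0 of 4 endothelial genes and 0 of 4 epithelial genes did. Of 4 blood and immune genes 1 (Cd68) did, with 0.885, 1.096 and 1.11 FPKM in Unt, 3.51, 2.91 and 2.75 in DOX and 4.77, 3.03 and 1.98 in D_MgHCF, and Cd3e and Ptprc were at or near 0. Summed levels of the rarer lists were highest in D_MgHCF, with 1.78, 1.06 and 0.416 FPKM for cardiomyocyte genes (at most 0.211 in Unt), 1.08, 0.599 and 0.263 for endothelial genes (at most 0.0963) and 1.63, 0.894 and 0.425 for epithelial genes (at most 0.154). The fibroblast or mesenchymal genes summed to 513, 535 and 585 FPKM in Unt, 1542, 1778 and 1954 in DOX, 1185, 1448 and 1541 in D_DXZ and 548, 321 and 308 in D_MgHCF. The sum was carried by Vim and Fn1, and Vim had 220, 242 and 268 FPKM in Unt, 869.9, 1119 and 1137 in DOX and 157, 114 and 93.4 in D_MgHCF. Pdgfrb ran the other way from Unt, at 11.7, 11.8 and 13.3, to DOX, at 7.67, 8.45 and 8.92. On average 20394 genes had reads in Unt, 19363 in DOX, 19502 in D_DXZ and 24679 in D_MgHCF. These values also moved with the treatment, and their part in the changes of the factors was not tested. The study calls the cells rat, whereas the organism label and the gene identifiers are mouse, so that a read count also depends on how well a gene matched the mouse sequence. Replicate 3 of D_MgHCF stood apart from the other libraries of its group, with Pearson correlations of 0.942 and 0.964 on the log2(FPKM + 1) scale, whereas all other pairs within a group reached at least 0.984. In bulk RNA, a change in the kinds of cells present and a change of RNA per cell cannot be told apart.

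FPKM are fragments scaled by gene length and by sequencing depth. The deposited values also carry a scaling factor per library, which averaged 1.35 in Unt, 0.701 in DOX, 0.799 in D_DXZ and 1.37 in D_MgHCF. The FPKM of all genes summed to 224137 in Unt, 581138 in DOX, 513581 in D_DXZ and 250068 in D_MgHCF, and the sums of Unt and DOX differed by more than the factors did. The deposited scale held the median gene level between groups (a median log2 change of 0.02 from Unt to DOX over 12434 genes with at least 1 FPKM in at least 3 libraries). With FPKM divided by the summed reads that median was -0.68, with TPM (each library brought to the same sum) it was -1.18, and with quantile normalization 0.02. From DOX to D_MgHCF the same medians were -0.02, 0.67, 1.02 and -0.04, and from Unt to D_MgHCF -0.07, -0.06, -0.22 and -0.08. Each log2 change is therefore given on the deposited log2(FPKM + 1) scale with its standard error (SE) and its range over these 4 scalings. A member is said to hold in all 4 where it passed the test (limma, Benjamini-Hochberg adjusted p under 0.05 over 25044 genes) in the same direction in each.

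**Figure D1:**
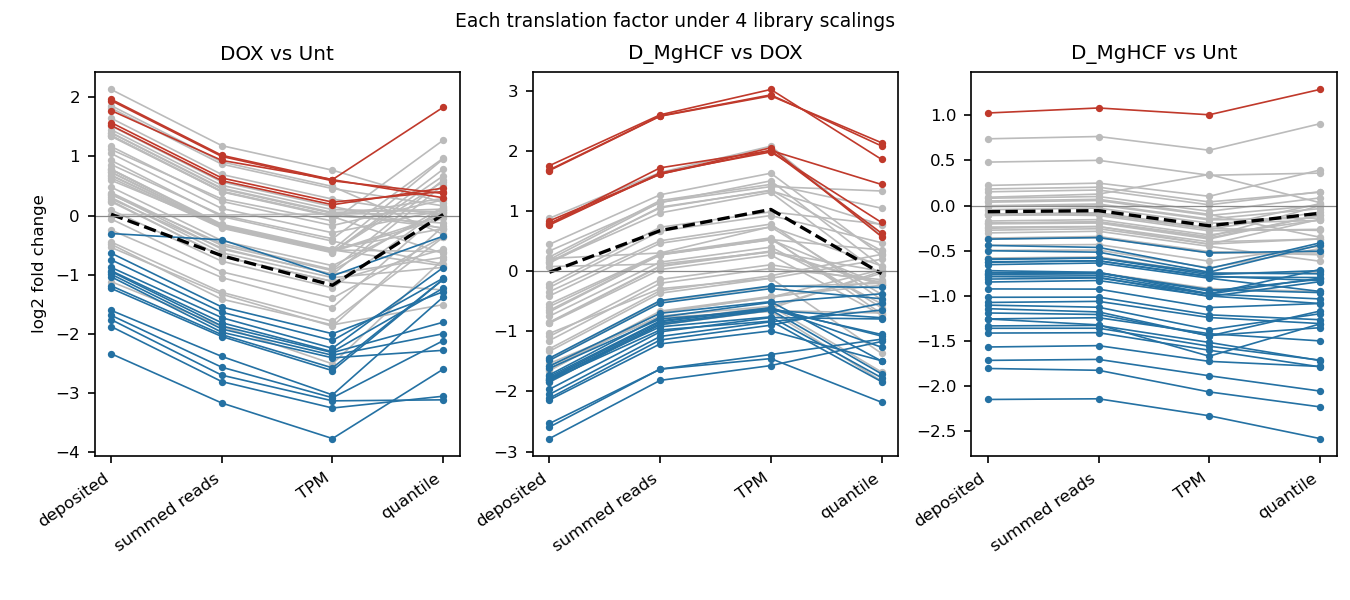
Log2 fold change of each of the 61 tested factors (1 line per gene) in 3 comparisons, under the deposited scale, FPKM over summed reads, TPM and quantile normalization. Red and blue lines are genes higher or lower in all 4 scalings, grey lines all others, and the dashed line is the median of the 12434 genes with at least 1 FPKM in at least 3 libraries, which moves to -1.18 under TPM in DOX against Unt.

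The first question was how doxorubicin changed these genes. On the deposited scale 32 of 61 tested factors were higher in DOX than in Unt, against 18.6% of all genes tested, and 17 were lower, against 19.9%. The factors had a median log2 change of 0.48, against 0.00 for all genes tested. The genes tested include many of low level, since 12434 of the 25044 had at least 1 FPKM in at least 3 libraries. With that minimum 33 of 59 factors were higher and 17 lower, against 37.1% and 36% of genes. The falls were then a smaller share of the factors than of the genes. Shares given below for complexes and lists are those of all genes tested. Under TPM 8 factors were higher and 38 lower, against 4.44% and 40.8% of all genes. Eef1a2 and Eif4e3 were not tested, with reads in at most 2 libraries. The direction of the list as a whole depended on the scaling, since the median was -0.21 over summed reads, -0.63 under TPM and -0.21 after quantile normalization. Relative to the median gene, its median was 0.46 on the deposited scale, 0.46 over summed reads and 0.55 under TPM, and -0.23 after quantile normalization. Under all 4 scalings 5 factors (Eif1ax, Eif2s3x, Eif4g1, Eif4g2 and Eif5a2) were higher, against 3.76% of all genes tested, and 15 were lower, against 14.7%.

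**Figure D2:**
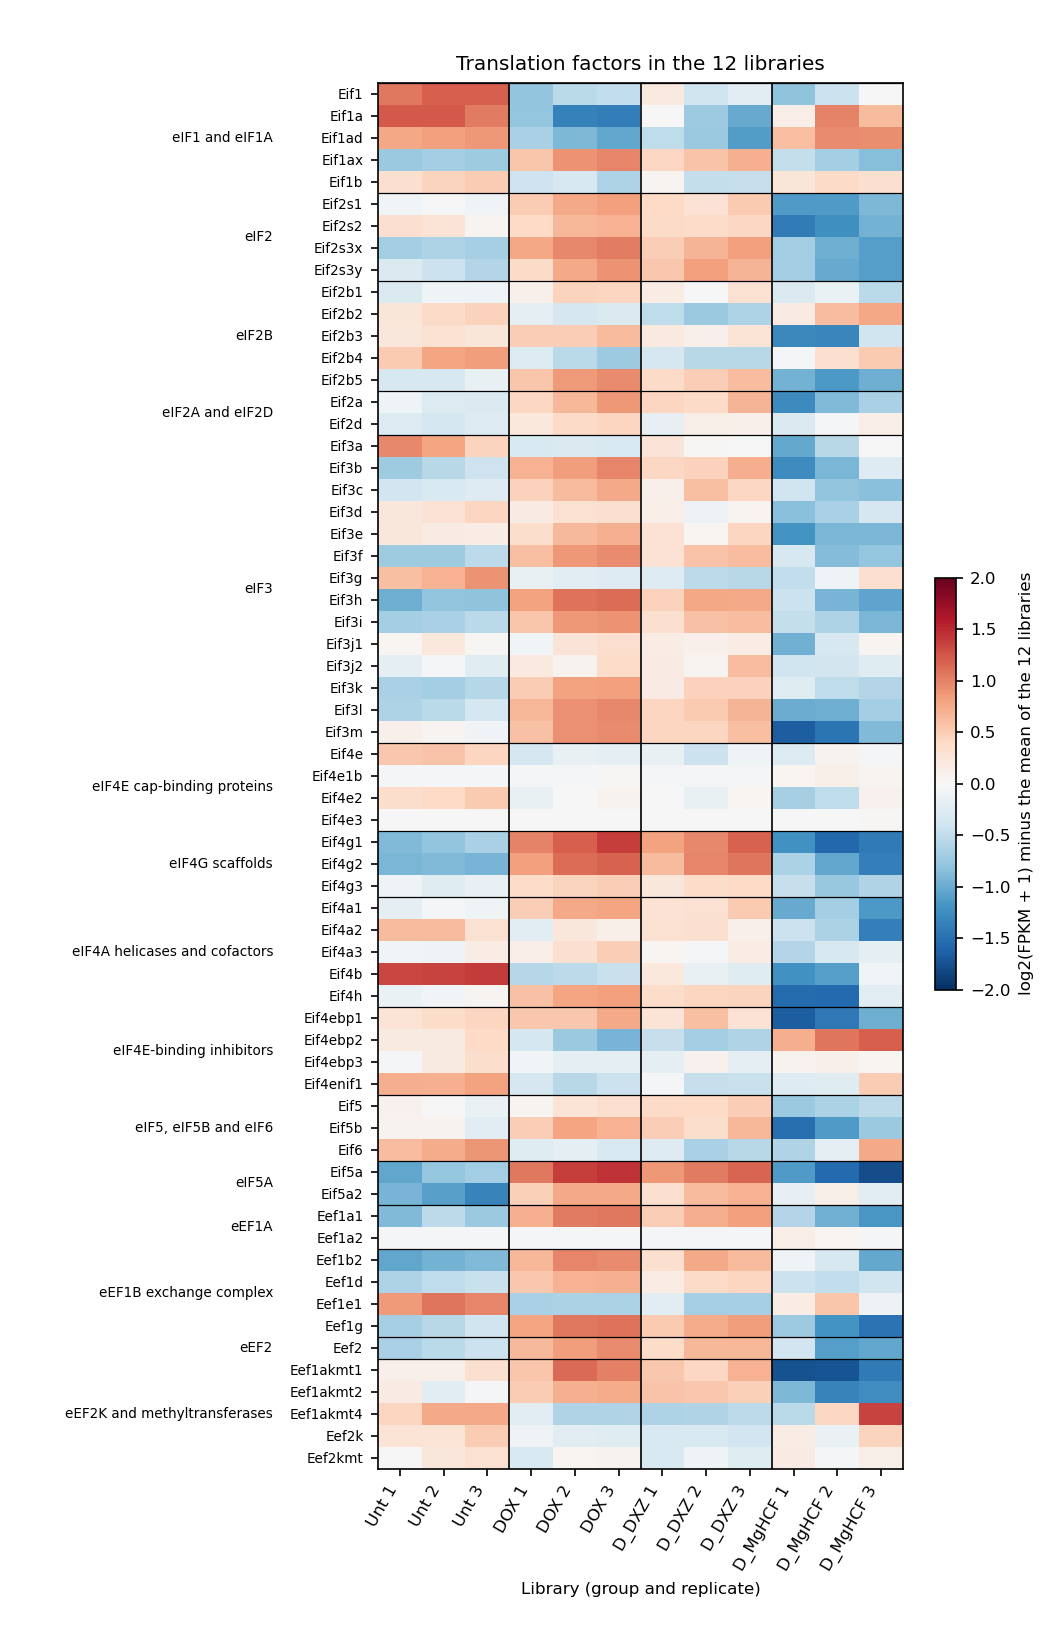
Log2(FPKM + 1) of all 63 factors in the 12 libraries, each row with its mean over the libraries subtracted, ordered by complex. Red is above and blue below the row mean on the deposited scale. eIF2, eIF4G, eIF5A and most eIF3 rows are red in DOX and D_DXZ, whereas Eif1, Eif1a and Eif4b are highest in Unt.

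Of the 5 genes grouped with eIF1 and eIF1A, 4 were lower in DOX, against 19.9% of all genes, and 1 was higher, against 18.6%. The counts were the same under all 4 scalings. The group includes Eif1ad, which was placed in it for its eIF1A-like domain and not for a role in start codon selection. Eif1a, which encodes an eIF1A protein, had 30.8, 30.8 and 26.9 FPKM in Unt, 6.93, 4.33 and 4.23 in DOX, 12.5, 7.18 and 5.75 in D_DXZ and 13.9, 26.1 and 20.04 in D_MgHCF. The DOX libraries were all below the others except for the overlap with D_DXZ. The log2 change from Unt to DOX was -2.33 ± 0.28 (SE, adjusted p = 8.70e-05, range -3.76 to -2.33), the largest fall among the factors on the deposited scale. Eif1ax, the X-linked gene for the same protein, had 30.5, 31.8 and 31.3 FPKM in Unt, 76.7, 96.9 and 103 in DOX, 69.1, 77.6 and 85.7 in D_DXZ and 36.9, 31.7 and 28.2 in D_MgHCF. Its log2 change was 1.52 ± 0.13 (SE, adjusted p = 1.55e-05, range 0.18 to 1.52). The pair moved in opposite directions under all 4 scalings. Their ratio within a library, which does not depend on a common factor per library, was 1.06 ± 0.0911 (SD, n = 3) in Unt, 19.3 ± 7.18 in DOX, 10.4 ± 4.71 in D_DXZ and 1.76 ± 0.784 in D_MgHCF.

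Eif1, whose product keeps the scanning ribosome from starting at poor sites, had 185, 205 and 205 FPKM in Unt, 50.9, 60.8 and 62.9 in DOX, 102, 66.7 and 76.02 in D_DXZ and 50.5, 65.5 and 87.99 in D_MgHCF. It was highest in the 3 Unt libraries, and the log2 change to DOX was -1.76 ± 0.203 (SE, adjusted p = 6.36e-05, range -3.13 to -1.76). Its paralog Eif1b changed by -0.87 ± 0.14 (SE, adjusted p = 5.74e-04, range -2.24 to -0.87). Eif1ad, a gene named for its eIF1A-like domain, changed by -1.68 ± 0.16 (SE, adjusted p = 2.40e-05, range -3.08 to -1.68), but a 428-base stretch of its transcripts is identical in the transcripts of the neighbour Banf1, which had a mean of 417 FPKM. Eif1 likewise shares 662 bases at 96.7% identity with transcripts of Emd, at 48.3 FPKM. In all, 17 members share such a stretch with another gene at 10% or more of their own FPKM, among them Eif2s2, Eif2s3x, Eif3m, Eif4e, Eif5b and Eef1g, and how their reads were split is not given.

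All 4 genes of eIF2 were higher in DOX on the deposited scale, against 18.6% of all genes, with a median log2 change of 0.93. Under TPM 1 was higher and 2 were lower, against 4.44% and 40.8% of all genes. The alpha subunit gene Eif2s1, whose product is phosphorylated by the stress kinases, had 23.1, 24.03 and 22.9 FPKM in Unt, 34.4, 41.4 and 43.4 in DOX, 31.9, 29.6 and 35.1 in D_DXZ and 10.5, 10.4 and 12.4 in D_MgHCF. The log2 change to DOX was 0.74 ± 0.11 (SE, adjusted p = 2.46e-04, range -0.599 to 0.74) and turned negative over summed reads and under TPM. The gamma subunit gene Eif2s3x, which binds the initiator tRNA, had 37.3, 38.7 and 37.5 FPKM in Unt, 104, 118 and 123 in DOX, 84.96, 96.8 and 107 in D_DXZ and 36.7, 30.1 and 27.4 in D_MgHCF. It was higher in DOX in all 4 scalings (1.57 ± 0.12 SE, adjusted p = 1.18e-05, range 0.23 to 1.57). The 5 genes of eIF2B, the exchange factor that recharges eIF2, were split on the deposited scale. Eif2b5, the catalytic subunit, changed by 1.05 ± 0.11 (SE, adjusted p = 4.53e-05, range -0.29 to 1.05) and turned negative under TPM. Eif2b4 (-1.23 ± 0.17 SE, adjusted p = 1.65e-04, range -2.62 to -1.08) and Eif2b2 (-0.63 ± 0.14 SE, adjusted p = 0.00491, range -1.99 to -0.63) were lower in all 4 scalings. Eif2b1 changed by 0.48 ± 0.14 (SE, adjusted p = 0.0156, range -0.84 to 0.48) and passed the test. Eif2b3 changed by 0.28 ± 0.21 (SE, adjusted p = 0.367, range -0.99 to 0.52) and did not. Both turned negative over summed reads and under TPM. Eif2b1 was lower in these 2 scalings (adjusted p of 0.0203 and 3.38e-04, limma), and Eif2b3 under TPM (0.0248). Eif2b4 overlaps Snx17 on the other strand, and the files do not say whether reads were counted by strand.

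Of the 14 eIF3 genes, 9 were higher in DOX and 2 lower, with a median log2 change of 0.86 on the deposited scale, against 18.6% and 19.9% of all genes. Under TPM 1 was higher and 7 lower with a median of -0.496, against 4.44% and 40.8% of all genes, and over summed reads 5 were higher and 6 lower, against 8.29% and 33.2%. Eif3h was by far the most abundant, with 845, 966 and 949 FPKM in Unt, 2899, 3553 and 3597 in DOX, 2283, 2859 and 2825 in D_DXZ and 1236, 875 and 798 in D_MgHCF. Eif3c, next in order, averaged 234 FPKM in Unt, and why Eif3h lay so far above it is unknown and was not tested. Eif3h changed by 1.86 ± 0.29 (SE, adjusted p = 3.92e-04, range -0.31 to 1.86), and its direction turned after quantile normalization. Eif3a, the largest subunit and a platform for assembly, had 123, 109 and 84.9 FPKM in Unt, 50.2, 51.2 and 50.2 in DOX, 74.6, 63.5 and 61.9 in D_DXZ and 30.2, 42.2 and 63.1 in D_MgHCF. The 3 DOX libraries lay below all Unt and D_DXZ libraries, with a change of -1.03 ± 0.23 (SE, adjusted p = 0.00379, range -2.401 to -1.03), and Eif3g fell by 0.95 on the log2 scale, both lower in all 4 scalings. The ratio of Eif3b, another core subunit, to Eif3a within a library was 1.09 ± 0.324 in Unt, 5.83 ± 0.588 in DOX, 3.63 ± 0.743 in D_DXZ and 2.16 ± 0.107 in D_MgHCF.

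The partners of the cap-binding complex eIF4F moved in opposite directions. Eif4g1, the scaffold that joins the cap-binding protein to the helicase and eIF3, had 103, 110.2 and 120.3 FPKM in Unt, 380.3, 438 and 497 in DOX, 334, 371 and 431 in D_DXZ and 81.8, 63.1 and 70.4 in D_MgHCF. All DOX and D_DXZ libraries lay above all Unt and D_MgHCF libraries, and the change to DOX was 1.97 ± 0.15 (SE, adjusted p = 1.17e-05, range 0.302 to 1.97). Eif4g2, a relative that lacks the cap-binding partner's site, changed by 1.94 ± 0.19 (SE, adjusted p = 2.41e-05, range 0.37 to 1.94). Both were higher in all 4 scalings. Eif4e, the cap-binding protein itself, had 20.6, 21.1 and 19.1 FPKM in Unt, 10.7, 12.3 and 11.9 in DOX, 12.4, 10.03 and 12.9 in D_DXZ and 11.3, 14.6 and 13.6 in D_MgHCF. It was lower in DOX in all 4 scalings (-0.75 ± 0.12 SE, adjusted p = 4.54e-04, range -2.11 to -0.75). The ratio of Eif4g1 to Eif4e was 5.51 ± 0.705 in Unt, 37.5 ± 3.55 in DOX, 32.4 ± 5.13 in D_DXZ and 5.59 ± 1.52 in D_MgHCF.

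Eif4b, a cofactor that stimulates the eIF4A helicase, had 121, 123 and 126 FPKM in Unt, 31.7, 32.7 and 34.6 in DOX, 55.5, 42.97 and 40.3 in D_DXZ and 20.1, 21.6 and 45.6 in D_MgHCF. It was lower than in Unt in every treated library, with a change to DOX of -1.87 ± 0.25 (SE, adjusted p = 1.72e-04, range -3.25 to -1.87). The helicase gene Eif4a1 changed by 0.78 ± 0.14 (SE, adjusted p = 9.70e-04, range -0.85 to 0.78) and turned negative under the other 3 scalings, and its relative Eif4a2 changed by -0.48 ± 0.22 (SE, adjusted p = 0.123, range -1.85 to -0.48). A pseudogene, Eif4a-ps4, matches 1218 bases of Eif4a1 at 99.9% identity and had 148 FPKM, so the level of Eif4a1 is uncertain. The ratio of Eif4a1 to Eif4b was 1.14 ± 0.0542 in Unt, 7.41 ± 0.589 in DOX, 4.37 ± 1.03 in D_DXZ and 3.18 ± 1.501 in D_MgHCF, where replicate 3 was at 1.49 and the others at 3.72 and 4.35.

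The eIF4E-binding inhibitors, which hold eIF4E away from eIF4G when mTORC1 is inactive, differed from each other as well. Eif4ebp1 had 107, 114 and 119.9 FPKM in Unt, 129, 128 and 149.9 in DOX, 107, 134 and 108 in D_DXZ and 27.5, 31.98 and 44.2 in D_MgHCF. Its change to DOX was 0.25 ± 0.16 (SE, adjusted p = 0.294, range -1.26 to 0.25). Under the other 3 scalings the change was negative and passed the test, so that Eif4ebp1 was lower in DOX there. Eif4ebp2 had 20.01, 20.02 and 23.4 FPKM in Unt, 13.5, 10.01 and 8.74 in DOX, 12.4, 10.6 and 11.2 in D_DXZ and 29.5, 37.9 and 41.4 in D_MgHCF. No group overlapped another except DOX and D_DXZ, and the gene was lower in DOX in all 4 scalings (-0.93 ± 0.16 SE, adjusted p = 8.73e-04, range -2.299 to -0.93). The ratio of Eif4ebp1 to Eif4ebp2 was 5.38 ± 0.297 in Unt, 13.2 ± 3.83 in DOX, 10.3 ± 2.11 in D_DXZ and 0.948 ± 0.113 in D_MgHCF. All pairs for which a ratio is given were chosen after the values were seen, and the ratios are descriptions with no test.

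**Figure D3:**
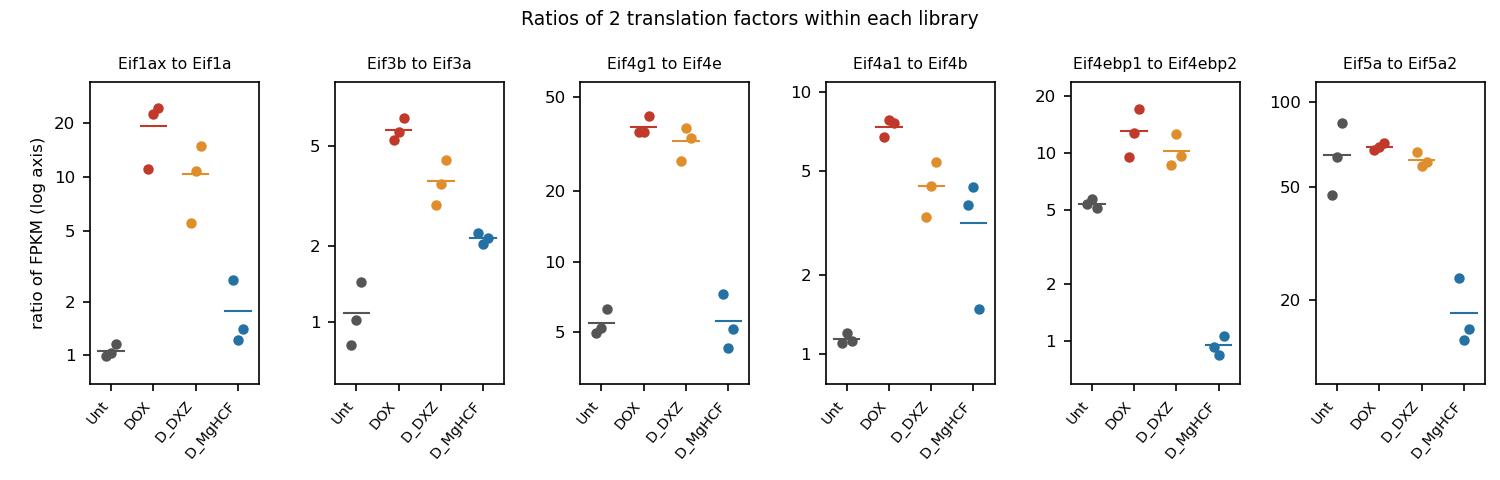
Ratio of the FPKM of 2 factors within each library, on log axes, for 6 pairs chosen after the values were seen. Points are the 3 libraries of a group and bars their means. Eif1ax to Eif1a and Eif4g1 to Eif4e average 1.06 and 5.51 in Unt, 19.3 and 37.5 in DOX and 1.76 and 5.59 in D_MgHCF, and Eif4ebp1 to Eif4ebp2 is lowest in D_MgHCF, at a mean of 0.948.

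Of the factors that act late in initiation, Eif5, which triggers GTP hydrolysis by eIF2, changed by 0.24 ± 0.098 (SE, adjusted p = 0.0872, range -1.11 to 0.24) and turned negative under the other 3 scalings. Eif5b, which joins the ribosomal subunits, changed by 0.69 ± 0.18 (SE, adjusted p = 0.0116, range -0.61 to 0.69). Eif6, which keeps the large subunit from joining too early, was lower in all 4 scalings (-0.99 ± 0.27 SE, adjusted p = 0.0143, range -2.36 to -0.99). Its call on the deposited scale was lost without Unt replicate 3, at a change of -0.92 (adjusted p of 0.0509, limma). Eif5a, whose hypusine-bearing product eases the ribosome through difficult peptide bonds, had 231, 277 and 292 FPKM in Unt, 987, 1244 and 1293 in DOX, 865, 979.6 and 1059 in D_DXZ and 215, 161 and 138 in D_MgHCF. The DOX and D_DXZ libraries lay above all others, and the change to DOX was 2.13 ± 0.201 (SE, adjusted p = 2.16e-05, range 0.22 to 2.13), the largest rise among the factors on the deposited scale. Eif5a did not pass the test after quantile normalization. Its paralog Eif5a2 had 4.89, 4.32 and 3.46 FPKM in Unt, 14.6, 17.95 and 18.004 in DOX, 12.97, 16.4 and 17.2 in D_DXZ and 8.996, 11.2 and 8.71 in D_MgHCF. It was higher in DOX in all 4 scalings (1.78 ± 0.15 SE, adjusted p = 1.40e-05, range 0.61 to 1.83), and stayed above Unt in every D_MgHCF library. The ratio of Eif5a to Eif5a2 was 65.3 ± 18.6 in Unt, 69.6 ± 2.09 in DOX, 62.6 ± 3.61 in D_DXZ and 18.1 ± 5.14 in D_MgHCF, so that the D_MgHCF libraries lay below all others.

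The elongation factors were led by Eef1a1, with 2389, 3060.2 and 2627 FPKM in Unt, 7165, 8996 and 9142 in DOX, 6172, 7257 and 7761 in D_DXZ and 2923, 2243 and 1948 in D_MgHCF. The DOX and D_DXZ libraries did not overlap the Unt and D_MgHCF libraries, and the change to DOX was 1.65 ± 0.49 (SE, adjusted p = 0.02, range 0.28 to 1.65 without quantile normalization). Eef1a1 ranked the third by FPKM in each of the 12 libraries, so that quantile normalization, which gives equal ranks equal values, sets its change to 0 by construction and tests nothing for this gene. Under TPM the change did not pass the test (adjusted p = 0.0587, limma). The call on the deposited scale was lost without Unt replicate 1 or 3 or without DOX replicate 2 or 3 (adjusted p of 0.0725, 0.0652, 0.0719 and 0.0804, limma). The tissue-restricted paralog Eef1a2 had 0 reads in Unt, DOX and D_DXZ and 7 reads in all in D_MgHCF. Eef2 had 818, 878 and 944 FPKM in Unt, 1999.98, 2286 and 2469.8 in DOX, 1648, 2019 and 2028 in D_DXZ and 980.4, 595 and 619.9 in D_MgHCF. Its change of 1.35 ± 0.27 (SE, adjusted p = 0.00193, range -0.64 to 1.35) turned negative under TPM and after quantile normalization. In the latter Eef2 passed the test as lower in DOX. The exchange factors Eef1b2 (1.82 ± 0.22 SE, adjusted p = 9.29e-05, range 0.16 to 1.82), Eef1g (1.52 ± 0.19 SE, adjusted p = 1.16e-04, range -0.22 to 1.52) and Eef1d (1.17 ± 0.09 SE, adjusted p = 1.22e-05, range -0.17 to 1.17) were higher on the deposited scale. Eef1e1, which despite its name encodes an auxiliary protein of the multi-synthetase complex, was lower in all 4 scalings, with 10.7, 12.6 and 11.7 FPKM in Unt and 3.16, 3.21 and 3.18 in DOX (-1.599 ± 0.17 SE, adjusted p = 4.02e-05, range -3.03 to -1.37). Eef2k, whose product inhibits eEF2 by phosphorylation, changed by -0.54 ± 0.14 (SE, adjusted p = 0.0118, range -1.87 to -0.18) and did not pass the test in each scaling. Its call on the deposited scale was lost without Unt replicate 3, at a change of -0.46 (adjusted p of 0.0545, limma).

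**Figure D4:**
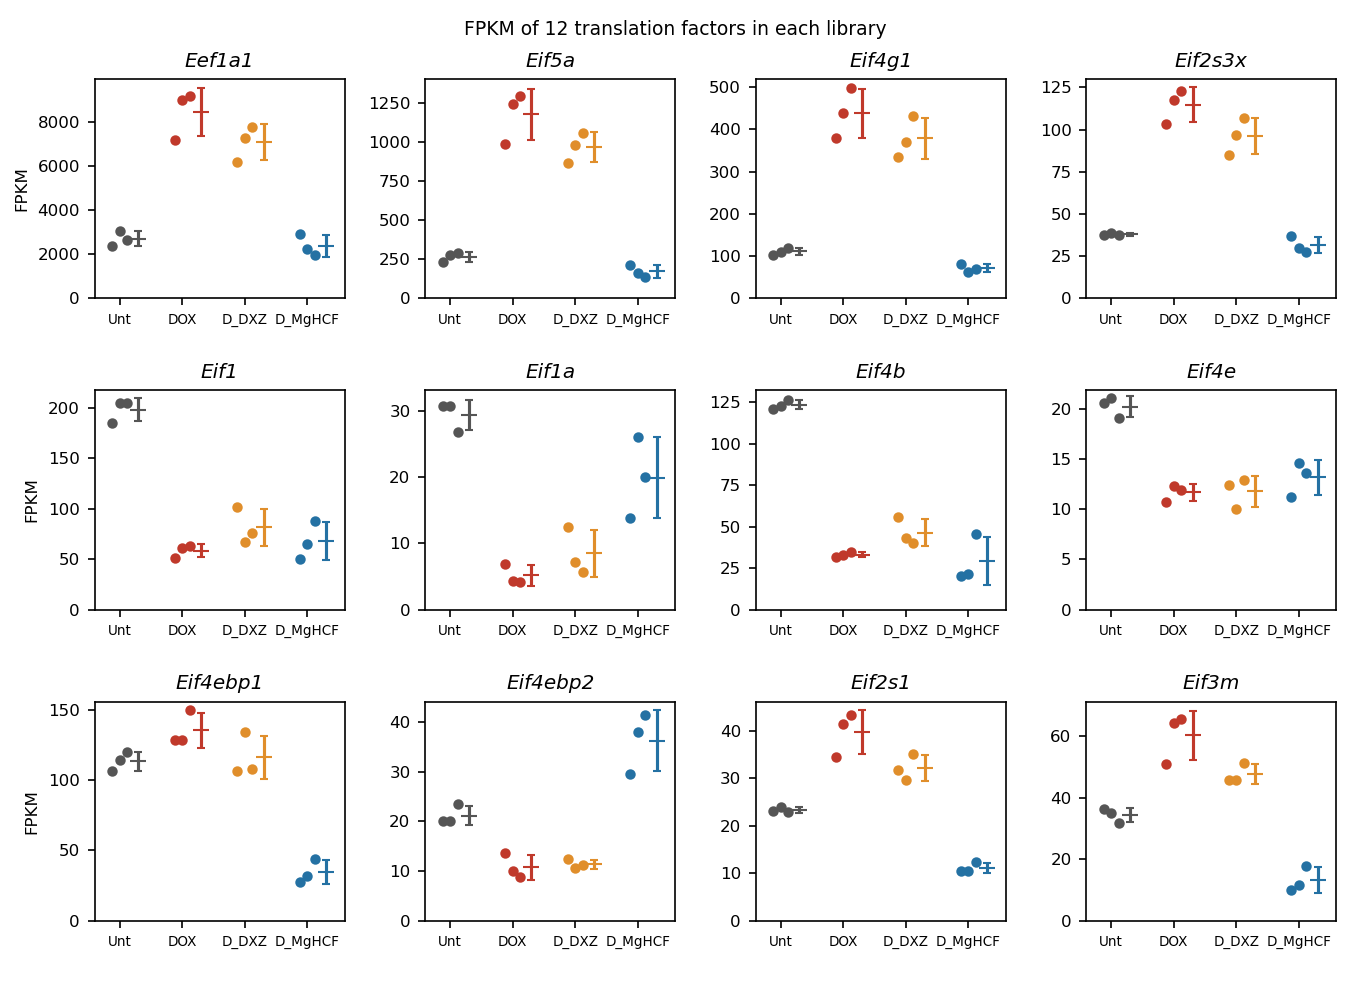
FPKM of 12 factors in each library, on linear axes from 0. Points are the 3 libraries of a group and the bar beside them is the mean ± SD. Eef1a1, Eif5a, Eif4g1 and Eif2s3x share high DOX and D_DXZ values on the deposited scale, Eif1 and Eif4b are highest in Unt, and Eif4ebp2 is highest in D_MgHCF.

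Members with a pyrimidine tract within 20 bases of a RefSeq start, on either side, were compared with the others as a description. This class is wider than a tract at the very 5′ end. The tract of Eif3m began 20 bases before the start and ended before it, and that of Eif4b began 10 bases after it. The comparison therefore does not separate mRNAs that start with such a tract from the rest. Of 14 tested members with a tract within 20 bases of the start 9 were higher and 5 lower in DOX on the deposited scale, against 18.6% and 19.9% of all genes, with a median log2 change of 0.92. Of 33 without one 16 were higher and 9 lower, with a median of 0.37. Both medians were negative under the other scalings, at -0.43 and -0.99 under TPM, where 1 and 5 members were higher and 7 and 23 lower, against 4.44% and 40.8% of all genes. In D_MgHCF against DOX the medians were -1.54 and -0.85 on the deposited scale and -0.39 and 0.33 under TPM. The highest change without a tract (Eif5a, 2.13) exceeded the highest with one (1.65, Eef1a1), and the ranges of the groups overlapped.

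The second question was whether dexrazoxane moved these genes back towards Unt. Compared with DOX, 0 of 61 factors passed the test in either direction in D_DXZ, where 0.0% of all genes were called higher and 0.0% lower. At an unadjusted p under 0.05, limma gave 1 higher factor and 10 lower, against 4.56% and 4.97% of all genes, and voom on the recovered reads gave 1 and 7, against 4.39% and 3.79%, with 0 after adjustment. The lowest adjusted p (limma) was 0.335, for Eef1d, at a log2 change of -0.32 ± 0.09 (SE). The largest differences were those of Eif1a (0.59 ± 0.28 SE, adjusted p = 0.558, range 0.51 to 0.78), Eif4b (0.46 ± 0.25 SE, adjusted p = 0.609, range 0.46 to 0.64) and Eif1 (0.46 ± 0.203 SE, adjusted p = 0.514, range 0.46 to 0.64). Eef1a1 differed by -0.25 ± 0.49 (SE, adjusted p = 0.941, range -0.25 to -0.066 without quantile normalization) and Eif5a by -0.27 ± 0.201 (SE, adjusted p = 0.728, range -0.27 to -0.03). The test therefore did not separate the groups, which is not evidence that they were alike. Against Unt, 28 factors were higher in D_DXZ (15.9% of all genes) and 16 lower (18.0%), with a median log2 change of 0.38 on the deposited scale, a comparison that shares its control libraries with that of DOX. The median turned negative under the other scalings, to -0.31 over summed reads, -0.74 under TPM and -0.24 after quantile normalization, and TPM gave 5 higher and 41 lower, against 3.65% and 40.3% of all genes. In all 4 scalings, 3 factors were higher (Eif4g1, Eif4g2 and Eif5a2), against 3.2% of all genes, and 13 lower, against 12.3%. On the deposited scale with a minimum of 1 FPKM in at least 3 libraries, 29 of 59 factors were higher and 18 lower. The shares of genes were 32.8% and 34.8%.

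**Figure D5:**
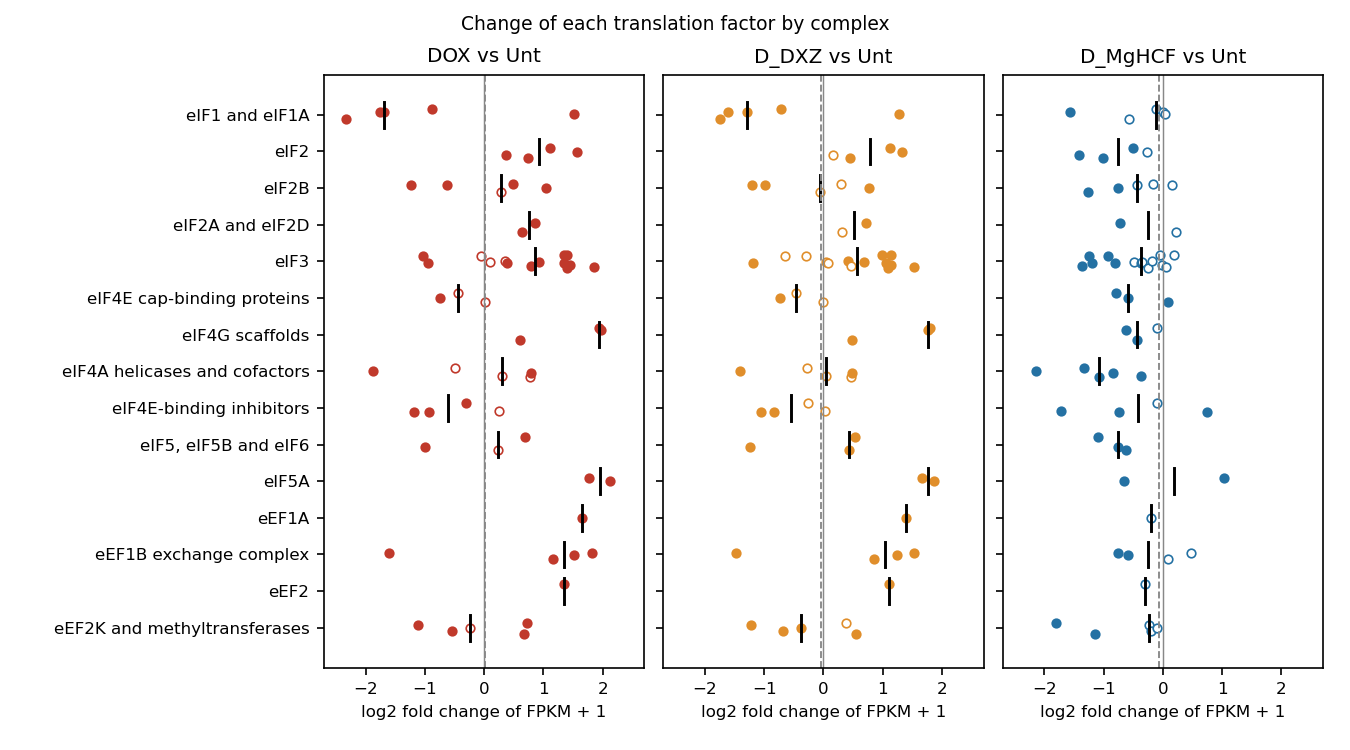
Log2 fold change of each tested factor against Unt for DOX, D_DXZ and D_MgHCF, by complex, on the deposited scale. Filled points passed the test (adjusted p under 0.05), open points did not, black bars are medians of a complex and the dashed line is the median of the 12434 genes with at least 1 FPKM in at least 3 libraries. The eIF4G and eIF5A medians are 1.94 and 1.95 in DOX and -0.44 and 0.19 in D_MgHCF.

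The third question was what MgHCF did to the same genes under doxorubicin. Compared with DOX, 41 of 61 factors were lower in D_MgHCF on the deposited scale, against 20.1% of all genes, and 8 were higher, against 31.4%. The 8 included Eif4e1b, which was tested only because of its reads in the D_MgHCF libraries, so that its call has no weight. The median log2 change was -1.09, against 0.07 for all genes tested. With a minimum of 1 FPKM in at least 3 libraries, 41 of 59 factors were lower and 8 higher, against 39.2% and 35.9% of genes. Under TPM 24 were higher and 23 lower with a median of 0.04, a turned direction, against 53.9% and 6.75% of all genes, and over summed reads 20 were higher and 30 lower with a median of -0.20, against 49.4% and 9.59%. Relative to the median of the 12434 genes with at least 1 FPKM in at least 3 libraries, the median was -1.07 on the deposited scale, -0.87 over summed reads, -0.98 under TPM and -0.19 after quantile normalization. In all 4 scalings 18 factors were lower, against 6.01% of all genes, and 7 higher, against 16.6%. Without D_MgHCF replicate 3 the counts were 44 lower and 8 higher, against 21.2% and 38% of all genes.

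The factors higher in D_MgHCF than in DOX in all 4 scalings were Eif1a, Eif1ad, Eif1b, Eif2b2, Eif2b4, Eef1e1 and Eif4ebp2. Eif1a changed by 1.75 ± 0.28 (SE, adjusted p = 4.89e-04, range 1.75 to 3.02) and Eif1ad by 1.68 ± 0.16 (SE, adjusted p = 2.02e-05, range 1.68 to 2.93). For Eif4ebp2 the change was 1.67 ± 0.16 (SE, adjusted p = 2.09e-05, range 1.67 to 2.91). The smaller rises of Eef1e1 and Eif2b4 were 0.83 ± 0.17 (SE, adjusted p = 0.00214, range 0.57 to 2.05) and 0.79 ± 0.17 (SE, adjusted p = 0.00252, range 0.63 to 2.003). Each of these 7 was lower in DOX than in Unt, a comparison with the same DOX libraries. Eif4b (-0.27 ± 0.25 SE, adjusted p = 0.393, range -0.27 to 0.92), Eif1 (0.19 ± 0.203 SE, adjusted p = 0.457, range 0.19 to 1.404), Eif3a, Eif4e and Eif6, which were also lower in DOX, did not pass the test on the deposited scale. Eif1 and Eif6 were higher in the other 3 scalings, Eif3a and Eif4e under TPM and over summed reads, and Eif4b under TPM. The value of Eif6 rested on replicate 3 of D_MgHCF, with 23.1, 30.9 and 60.5 FPKM against 29.9, 30.95 and 28.5 in DOX, and its log2 change of 0.23 was -0.15 without that library.

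Among the 18 factors lower in D_MgHCF than in DOX in all 4 scalings were all 4 genes of eIF2. The largest falls were those of Eif5a (-2.78 ± 0.201 SE, adjusted p = 5.07e-06, range -2.78 to -1.17) and Eif4g1 (-2.59 ± 0.15 SE, adjusted p = 2.50e-06, range -2.59 to -1.13). Eef1g changed by -2.11 ± 0.19 (SE, adjusted p = 1.52e-05, range -2.11 to -0.54) and Eif4ebp1 by -1.96 ± 0.16 (SE, adjusted p = 9.15e-06, range -1.96 to -0.77). Eif2s1 and Eif2b5 changed by -1.75 ± 0.11 (SE, adjusted p = 2.82e-06, range -1.75 to -0.61) and -1.81 ± 0.11 (SE, adjusted p = 3.08e-06, range -1.81 to -0.64). Eif3m, an eIF3 subunit, had 36.2, 34.997 and 31.9 FPKM in Unt, 50.996, 64.2 and 65.4 in DOX and 9.999, 11.6 and 17.9 in D_MgHCF (-2.14 ± 0.18 SE, adjusted p = 9.33e-06, range -2.14 to -0.996). Eef1akmt1, a lysine methyltransferase named for its substrate eEF1A, had 23.4, 23.5 and 27.3 FPKM in Unt, 32.6, 49.1 and 45.003 in DOX, 32.1, 29.2 and 35.9 in D_DXZ and 5.78, 5.89 and 7.53 in D_MgHCF. Its change was -2.53 ± 0.16 (SE, adjusted p = 3.02e-06, range -2.53 to -1.46). In both, every D_MgHCF library lay below every Unt library as well. Eef1a1 was lower in the 3 scalings that can test it (-1.84 ± 0.49 SE, adjusted p = 0.00932, range -1.84 to -0.62). Eef2 (-1.65 ± 0.27 SE, adjusted p = 4.67e-04, range -1.65 to 0.02) was lower in the same 3 scalings but not after quantile normalization.

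Against Unt, the scalings gave nearly the same picture for D_MgHCF. On the deposited scale 32 factors were lower (15.7% of all genes) and 3 higher (24.3%), with a median of -0.49, and all of the 32 but Eif4a3 and Eif6 were lower in all 4 scalings, against 14.6% of all genes. The 1 factor higher in all 4 was Eif5a2, against 13.8%. The median relative to the median gene lay between -0.47 and -0.43 in the 4 scalings. Without replicate 3 the counts were 34 lower and 4 higher, against 18.7% and 33.4% of all genes. All 5 genes of the eIF4A helicases and cofactors were lower, led by Eif4b (-2.15 ± 0.25 SE, adjusted p = 1.74e-04, range -2.58 to -2.14), as were Eif5, Eif5b and Eif6. The next largest falls were those of Eef1akmt1 (-1.803 ± 0.16 SE, adjusted p = 3.67e-05, range -2.23 to -1.803) and Eif4ebp1 (-1.71 ± 0.16 SE, adjusted p = 5.94e-05, range -2.05 to -1.702). Higher than in Unt were Eif5a2 (1.03 ± 0.15 SE, adjusted p = 5.42e-04, range 1.01 to 1.29, in all 4 scalings), Eif4ebp2 (0.74 ± 0.16 SE, adjusted p = 0.00529, range 0.61 to 0.91, not past the test in each scaling) and Eif4e1b, a germ-line relative of Eif4e that rested on 11 reads in D_MgHCF and 0 in Unt. Eif4e1b was tested only because of its reads in the D_MgHCF libraries, so that its call has no weight. With a minimum of 1 FPKM in at least 3 libraries, 2 of 59 factors were higher and 33 lower, against 24.6% and 29.9% of genes. Eif2s3x did not pass the test on the deposited scale (-0.27 ± 0.12 SE, adjusted p = 0.10005, range -0.43 to -0.26) but was lower in the other 3 scalings. Eef1a1 did not pass it either (-0.196 ± 0.49 SE, adjusted p = 0.78) and was lower under TPM. Eef1b2 changed by 0.48 ± 0.22 (SE, adjusted p = 0.11, range 0.34 to 0.50) and was higher over summed reads and after quantile normalization.

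Set against D_DXZ, D_MgHCF had 41 lower factors (19.0% of all genes) and 10 higher (29.4%), with a median log2 change of -1.04 on the deposited scale. The 10 included Eif4e1b, tested only because of its reads in the D_MgHCF libraries, so that its call has no weight here either. With a minimum of 1 FPKM in at least 3 libraries, 9 of 59 factors were higher and 42 lower, against 32.7% and 37.6% of genes. Under TPM 19 were lower and 21 higher with a median of -0.0070, against 6.23% and 51.1% of all genes, and after quantile normalization the median was -0.19. In all 4 scalings 15 were lower, against 5.7% of all genes, and 7 higher, against 16.7%.

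The wider pathway was read from 5 lists of regulators, with counts on the deposited scale. Of all genes tested, 18.6% rose and 19.9% fell from Unt to DOX, and 31.4% rose and 20.1% fell from DOX to D_MgHCF. Among genes with at least 1 FPKM in at least 3 libraries, the shares were 37.1% and 36%, and 35.9% and 39.2%. List counts near either set of shares say nothing about a list. Of 12 eIF2 kinases and phosphatase regulators, 4 rose and 5 fell from Unt to DOX, and 4 rose and 5 fell from DOX to D_MgHCF, the latter rises near the share of all genes. Ppp1r15b, which targets a phosphatase to eIF2 alpha, had 29.6, 32.1 and 34.1 FPKM in Unt, 7.17, 4.33 and 4.17 in DOX, 12.5, 9.47 and 7.95 in D_DXZ and 22.96, 22.4 and 25.5 in D_MgHCF. It was lower in DOX (-2.43 ± 0.19 SE, adjusted p = 1.18e-05, range -3.87 to -2.43) and higher in D_MgHCF than in DOX (2.01 ± 0.19 SE, adjusted p = 1.69e-05, range 2.01 to 3.29) in all 4 scalings. Dnajc3, an inhibitor of eIF2 kinases, was higher in DOX in all 4 scalings (1.71 ± 0.16 SE, adjusted p = 1.91e-05, range 0.41 to 1.71). Ppp1cb, a phosphatase catalytic subunit, was lower in D_MgHCF than in DOX in all 4 (-1.702 ± 0.14 SE, adjusted p = 7.98e-06, range -1.702 to -0.56).

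Of 19 tested genes of mTORC1 and eIF4F control, 4 rose and 9 fell from Unt to DOX, and 7 rose and 7 fell from DOX to D_MgHCF, so that the rises were near the shares of all genes in both comparisons. Ddit4, a stress-induced inhibitor of mTORC1, had 80.1, 75.2 and 86.1 FPKM in Unt, 11.9, 4.97 and 3.005 in DOX, 20.8, 12.0 and 5.12 in D_DXZ and 22.5, 24.8 and 66.4 in D_MgHCF. It was lower in DOX (-3.59 ± 0.55 SE, adjusted p = 3.92e-04, range -5.04 to -3.59) and higher in D_MgHCF than in DOX (2.35 ± 0.55 SE, adjusted p = 0.005, range 2.35 to 3.63) in all 4 scalings, with replicate 3 of D_MgHCF far above the other libraries of its group. Cyfip1, which binds eIF4E, changed by 1.4003 ± 0.12 (SE, adjusted p = 1.60e-05, range 0.09 to 1.4003) in DOX and by -2.09 ± 0.12 (SE, adjusted p = 2.62e-06, range -2.09 to -0.97) from DOX to D_MgHCF, the latter in all 4 scalings.

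Termination and recycling genes were split, with 4 of 10 tested higher and 4 lower in DOX, and 3 rises, near the share of all genes, and 6 falls from DOX to D_MgHCF. Pelo, which rescues stalled ribosomes, had 4.596, 5.76 and 6.47 FPKM in Unt, 0.535, 0.731 and 0.216 in DOX, 1.86, 0.525 and 0.515 in D_DXZ and 2.35, 3.63 and 3.87 in D_MgHCF. Its change to DOX was -2.15 ± 0.27 (SE, adjusted p = 1.05e-04, range -3.82 to -1.82), a fall in all 4 scalings. Abce1, the recycling ATPase that works with it, was lower in D_MgHCF than in DOX in all 4 scalings (-2.26 ± 0.19 SE, adjusted p = 8.84e-06, range -2.26 to -1.13). Mcts1, a recycling factor, changed by 0.98 ± 0.11 (SE, adjusted p = 6.79e-05, range -0.33 to 0.98) in DOX and turned negative under TPM. The poly(A)-binding list holds 8 genes, for poly(A)-binding proteins and for their partners and antagonists. Of these 8, 4 were higher and 2 lower in DOX, and 6 fell and 2 rose from DOX to D_MgHCF. Pabpc1, the main cytoplasmic poly(A)-binding protein, was lower in D_MgHCF than in DOX in all 4 scalings (-2.03 ± 0.18 SE, adjusted p = 1.45e-05, range -2.03 to -0.497). Paip2, its inhibitor, was higher in DOX in all 4 (1.87 ± 0.24 SE, adjusted p = 1.16e-04, range 0.55 to 1.87). Tob1, which recruits deadenylases, was lower in DOX (-1.57 ± 0.39 SE, adjusted p = 0.00828, range -3.005 to -1.35) and higher in D_MgHCF than in DOX (2.34 ± 0.39 SE, adjusted p = 6.35e-04, range 2.34 to 3.66), in all 4 as well. Of 9 genes for hypusine and diphthamide, the modifications of eIF5A and eEF2, 3 were higher and 4 lower in DOX, and 2 rose and 6 fell from DOX to D_MgHCF. Under TPM, where 4.44% of all genes rose and 40.8% fell from Unt to DOX, the counts of rises and falls were 1 and 9 for the eIF2 list, 0 and 14 for mTORC1 and eIF4F control, 0 and 9 for termination and recycling, 2 and 4 for poly(A) binding and 0 and 7 for hypusine and diphthamide. From DOX to D_MgHCF, where 53.9% of all genes rose and 6.75% fell under TPM, they were 9 and 2, 14 and 4, 3 and 4, 4 and 2, and 4 and 2 in the same order, so that the balance of 4 of the 5 lists differed from that on the deposited scale.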

How the data were processed

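Per the labels and the study's methods, poly(A) RNA from H9c2 cells was made into NEBNext libraries and sequenced as paired ends, and the submitters' processing notes name HISAT2 2.0.5 and GRCm38. The counting program and the annotation release are not given in the sources used here. The authors deposited FPKM for 54345 genes in 12 libraries, and no sample column was left unused. Multiplying FPKM by gene length gave whole reads for 100% of values (tolerance 0.05 reads) and showed that a scaling factor per library is contained in the deposited FPKM. Log2(FPKM + 1) of genes detected in 3 or more libraries was fitted with limma (version 3.58.1; R version 4.3.3) over all 4 groups together, with a mean-dependent prior, and p-values were adjusted over all genes tested. Folds on this scale understate the changes of low genes. A gene was called at an adjusted p under 0.05.

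The alternatives were a pseudocount of 0.1, a minimum of 1 FPKM, no filter, an unadjusted p, a 2-fold minimum, a replicate block, fits on 2 groups, TPM, quantile normalization, FPKM over summed reads, voom on the recovered reads, and leaving out each library. Transcripts of GENCODE M21 were compared with BLAST 2.17.0, counting matches of at least 150 bases at 95% identity. Start sequences are from RefSeq. The members and lists were chosen with earlier results of these data known. Named were 15 core factors, the 5 largest called rises and falls with a mean of at least 1 FPKM and no overlap in DOX against Unt and D_MgHCF against DOX (3 in D_MgHCF against Unt), and for each of 4 regulator lists the largest rise and fall. Other genes named for their role, their ratio or their direction in all scalings were chosen after their values were seen.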

Additional observations from a re-analysis of the deposited data

How the results depend on the processing

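The direction of the list's median depended on the library scaling in DOX and D_DXZ against Unt and, under TPM, in D_MgHCF against DOX, but not from Unt to D_MgHCF, from DOX to D_DXZ or from D_DXZ to D_MgHCF. Neither a pseudocount of 0.1, a minimum of 1 FPKM, no filter, nor voom moved a count by over 1.5 times. From Unt to DOX, TPM gave 8 higher and 38 lower factors (4.44% and 40.8% of all genes), summed reads 15 and 29 (8.29% and 33.2%), and quantile normalization 14 and 25 (16.7% and 17.3%). From Unt to D_DXZ, TPM gave 5 and 41 (3.65% and 40.3%), summed reads 14 and 29 (7.64% and 31.7%), and quantile normalization 11 and 22 (14% and 14.6%). From Unt to D_MgHCF, summed reads gave 5 higher (29.3%). From DOX to D_MgHCF, TPM gave 24 higher and 23 lower (53.9% and 6.75%), summed reads 20 higher (49.4%), and quantile normalization 26 lower (19.6%). From D_DXZ to D_MgHCF, TPM gave 21 and 19 (51.1% and 6.23%), summed reads 16 and 27 (45.6% and 9.51%), and quantile normalization 24 lower (19.3%). For the same comparison a fit on the 2 groups gave 6 higher (17.3%, against 29.4% of all genes in the main fit). With a 2-fold minimum, which removes small changes by construction, the higher and lower counts were 19 and 9 from Unt to DOX, 16 and 10 from Unt to D_DXZ, and 1 and 14 from Unt to D_MgHCF, with 3 higher from DOX to D_MgHCF and 4 higher from D_DXZ to D_MgHCF. The share of all genes under this minimum is not given, so these counts cannot be set against it and say nothing about the factors. An unadjusted p gave 1 higher and 10 lower from DOX to D_DXZ (4.56% and 4.97% of all genes).

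Medians changed sign to -0.63 (TPM), -0.21 (quantile) and -0.21 (summed reads) from Unt to DOX, to -0.74, -0.24 and -0.31 from Unt to D_DXZ, and to 0.042 (TPM) from DOX to D_MgHCF. Over the 4 scalings the log2 change took both signs in 30 of 61 factors from Unt to DOX, 30 from Unt to D_DXZ, 6 from Unt to D_MgHCF, 20 from DOX to D_DXZ, 19 from DOX to D_MgHCF and 15 from D_DXZ to D_MgHCF. Among the genes recomputed under every alternative, those from Unt to DOX were Eef2 (-0.015 TPM, -0.64 quantile), Eif2b5 (-0.29 TPM), Eif2s1 (-0.60 TPM, -0.18 summed reads), Eif3h (-0.31 quantile), Eif4a1 (-0.58 TPM, -0.85 quantile, -0.16 summed reads), Eif4ebp1 (-1.11, -1.26 and -0.69), Eif5 (-1.11, -0.57 and -0.69) and Mcts1 (-0.33 TPM). From DOX to D_MgHCF they were Eef2 (0.024 quantile), Eif3a (0.98 TPM, 0.78 quantile, 0.73 summed reads), Eif4a2 (0.33 TPM, 0.085 summed reads) and Eif5 (0.32 TPM, 0.075 summed reads). Beyond the arithmetic of the scalings the cause was not tested.

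Leaving out 1 library at a time gave 28 to 34 higher and 13 to 19 lower factors from Unt to DOX. The shares of all genes were 16.4% to 20.9% and 17.2% to 22.8%. From Unt to D_DXZ the counts were 24 to 31 and 14 to 19 (13.6% to 18.5% and 14.5% to 21.7%). From Unt to D_MgHCF they were 3 to 5 and 24 to 34 (16.3% to 33.4% and 12.6% to 18.7%), with 5 higher without D_MgHCF replicate 1. From DOX to D_MgHCF they were 7 to 10 and 39 to 44 (24.3% to 38% and 18.2% to 21.2%). From D_DXZ to D_MgHCF they were 8 to 12 and 37 to 44 (23% to 36.2% and 17.1% to 20.4%). From DOX to D_DXZ they were 0 (at most 0.024% of all genes). Eif3a from DOX to D_MgHCF ranged from -0.489 (without D_MgHCF replicate 3, adjusted p of 0.0343, limma) to 0.030 (without D_MgHCF replicate 1), and Eif6 from -0.15 (without D_MgHCF replicate 3) to 0.526. Without Unt replicate 3, Eef2k and Eif6 no longer passed the test from Unt to DOX (adjusted p of 0.0545 and 0.0509, limma). Calls were gained for Eif4a2 without D_MgHCF replicate 3 and Eif5 without DOX replicate 1 from Unt to DOX (adjusted p of 0.0172 and 0.0280, limma), and for Eef2k without D_MgHCF replicate 2 from DOX to D_MgHCF (0.0128). The files pair no libraries. Same-numbered libraries deviated together with correlations of -0.314 to 0.306 (18 pairs). The replicate block gave 32 higher and 18 lower factors from Unt to DOX (18.3% and 19.3% of all genes). It gave 26 and 17 from Unt to D_DXZ (15.5% and 17.5%) and 3 and 29 from Unt to D_MgHCF (23% and 15.2%). From DOX to D_MgHCF it gave 8 and 41 (30.5% and 19.8%), and from D_DXZ to D_MgHCF 9 and 40 (28.4% and 18.6%). From DOX to D_DXZ it gave 0, with 0% of all genes. With the block, the call of Eef1a1 from Unt to DOX was lost (adjusted p of 0.0612, limma). Depth limits Eef1a2, Eif4e1b, Eif4e3 and Eif4ebp3, with at most 15 reads in any group.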
